A study of Medicago truncatula with 9 samples.

Results

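The miRNAs described here are the 21-nt entries named mtr-miR2585 to mtr-miR2680 in a count table of *Medicago truncatula* seedlings. The families miR2592 and miR2643 were left out. The study names miR2643 among its most expressed miRNAs, so the levels below do not stand for the whole run of numbers. The table held 138 such entries among its 905, under 44 different numbers. Many carried the same count as another entry in every library, and these were taken once. This left 64 distinct count profiles out of 656 in the whole table, and each is called here by the first of its names. The libraries came from entire 3-day-old seedlings of genotype R108, grown for 72 h on distilled water (DW), on 20 mM of a sodium chloride and sodium sulfate mixture (salt, SS) or on 5 mM of a sodium carbonate and sodium bicarbonate mixture (alkali, AS). Each condition had 3 small RNA libraries, with 3746957 to 7191272 miRNA counts per library. According to the methods each condition had 1 dish, and it is not said whether the replicates came from separate dishes, so the p-values measure the spread between these libraries only. The labelled tissue was not checked against markers, since the table holds miRNAs only. The rule for members uses number and length and not their measured levels, but it was chosen with earlier results of these data known.

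A plant miRNA is cut from a hairpin precursor by DICER-LIKE 1, loaded into an ARGONAUTE protein, and guides that protein to mRNAs that pair with it along almost its whole length. miRBase numbers miRNA families in the order in which they are registered, so a run of numbers groups families by the time of their discovery and not by sequence or function. High numbers mostly belong to families known from a single plant lineage, and such families are often weakly expressed and have few established targets. The count table gives no target for any member, and none is named here.

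Mature sequences were found for 3 of the 138 entries, in the study's supplementary lists of differentially expressed miRNAs. The study thus listed these 3 as changed. It used DESeq with a 1.5-fold change and a p below 0.05, which its methods give as an adjusted p. The fit here used edgeR and an adjusted p, so the calls were not made alike. In the fit described below, mtr-miR2606a was called, mtr-miR2639 was not, and mtr-miR2606b had too few counts for the test. The sequences are shown because 2 of them belong to the miR2606 pair, which holds the only member called in any comparison. The third has the highest fold change in salt among the members tested. They are written 5′ to 3′ with the seed (bases 2 to 8) in capitals.
mtr-miR2606a: uACAAUUCcuuaggugcuuuu
mtr-miR2606b: uACAAUUCcuuaggugcuuuu
mtr-miR2639: uAGUCGGCuuacgucaccuug
All 3 begin with U. The listed sequences of mtr-miR2606a and mtr-miR2606b were the same at all 21 positions, while mtr-miR2639 matched them at 8 positions and had another seed. The GC content was 33.3% in the miR2606 sequence and 52.4% in mtr-miR2639.

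The members, which leave out miR2643, were weakly expressed as a set. Of the 64 profiles, 63 had at least 1 count in at least 1 library and 45 had counts in all 9. The 1 profile at 0 in every library stands for all undetected entries, 7 in number, and 6 of the 44 numbers had no count. Only 7 had at least 100 counts in every library. Their levels are given as counts per 1000000 (CPM) of a library scaled with edgeR's TMM factors, which even out composition between libraries. All members have the same length, so length plays no part when their CPM values are set side by side. Whether each sequence is captured and assigned equally well was not tested, so the order of members is that of their counts. The median level of the 63 profiles was 3.19 CPM, against 14.7 CPM for the 653 profiles with counts in the whole table. The known 21-nt miRNAs numbered below 1000, which include the families conserved among land plants, had a median of 27.9 CPM. Those numbered above 5000 had a median of 2.43 CPM, and entries of the same numbers as the members but of other lengths had 1.86 CPM.

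**Figure D1:**
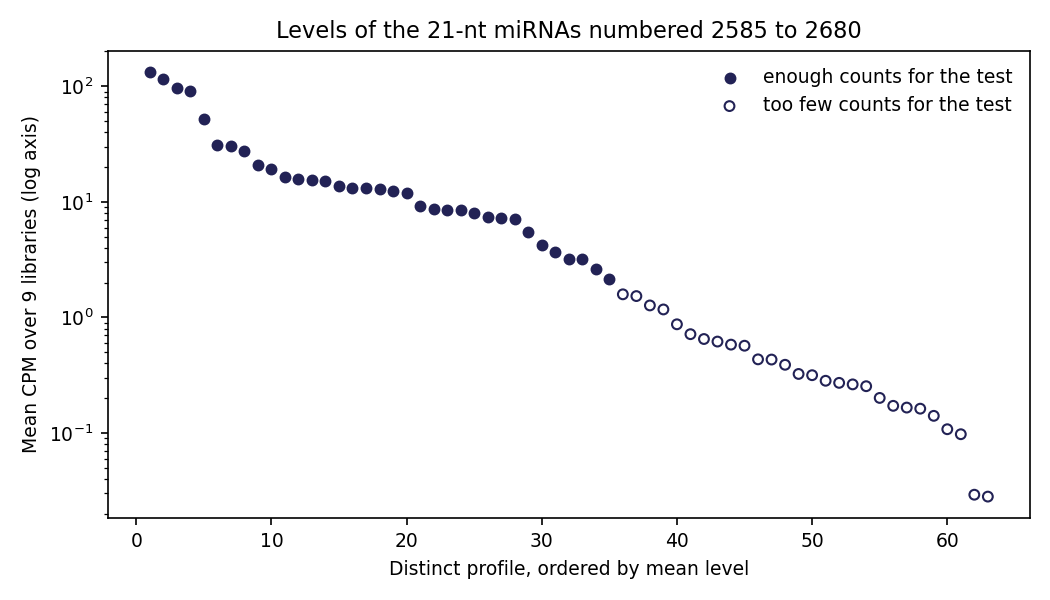
Mean CPM over the 9 libraries (log axis) of the 63 members with counts, in order of level, with filled points for the 35 that had enough counts for the test. The levels run from 133 CPM to single reads, and the 28 open points are the members that were left out of the test.

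A few members took most of the reads. mtr-miR2619b-5p, mtr-miR2648, mtr-miR2651 and mtr-miR2604 held 50.6% of all counts of the members, and the first of them alone held 15.3%. By family, miR2619 held 18.1% and miR2629 held 17.9%. Families with many entries could be weak. The 25 entries of miR2630 came down to 2 profiles with 2.79% of the members' counts, and 24 of the 25 had identical counts. mtr-miR2652a stood for 8 entries, mtr-miR2655a for 11 and mtr-miR2671a for 10. Beyond these exact copies, some profiles of a family nearly coincided and are not independent of each other. The counts of mtr-miR2629b and mtr-miR2629e differed by 3 over all libraries together, out of 1375. Those of mtr-miR2676a and mtr-miR2676b differed by 5 out of 595.

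mtr-miR2619b-5p was the most abundant member in 7 of the 9 libraries. Its level was 115, 112 and 149 CPM in DW1, DW2 and DW3, 136, 151 and 131 CPM in the salt libraries and 133, 125 and 144 CPM in the alkali libraries. The ranges of the 3 conditions overlapped. Its fold change was 1.11 in salt (95% interval 0.874 to 1.41) and 1.07 in alkali (0.841 to 1.36), both against distilled water. These intervals leave out a 1.5-fold change in either direction.

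mtr-miR2648 was at 87.8, 99.8 and 111 CPM in distilled water, 111, 116 and 128 CPM in salt and 134, 138 and 109 CPM in alkali. All salt libraries lay above all distilled water libraries, the closest by less than 1 CPM, and the alkali libraries overlapped them through AS3. Against distilled water, edgeR (quasi-likelihood, Benjamini-Hochberg) gave a log2 fold change of 0.25 for salt, with standard error 0.167 and adjusted p = 0.369. For alkali it was 0.35, with the same standard error and adjusted p = 0.112 by edgeR. mtr-miR2651 had its lowest level in DW1, at 64.2 CPM, followed by DW2 at 79.6 CPM, while DW3 was at 111 CPM. The salt libraries were close together at 98.6, 103 and 98.0 CPM, and the alkali libraries were at 122, 93.0 and 108 CPM. Distilled water was thus the condition in which this miRNA spread most.

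mtr-miR2604 was the member of the top 4 with its lowest levels in alkali. It was at 93.1, 85.4 and 96.4 CPM in distilled water, 99.2, 107 and 96.3 CPM in salt and 69.1, 78.4 and 85.8 CPM in alkali. The alkali libraries lay below all salt libraries, and AS3 reached just above DW2. The log2 fold change of alkali against salt was -0.38 (standard error 0.163, adjusted p = 0.204 by edgeR). This miRNA was the lowest of the 4 in all 3 alkali libraries, in DW3 and in SS3.

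**Figure D2:**
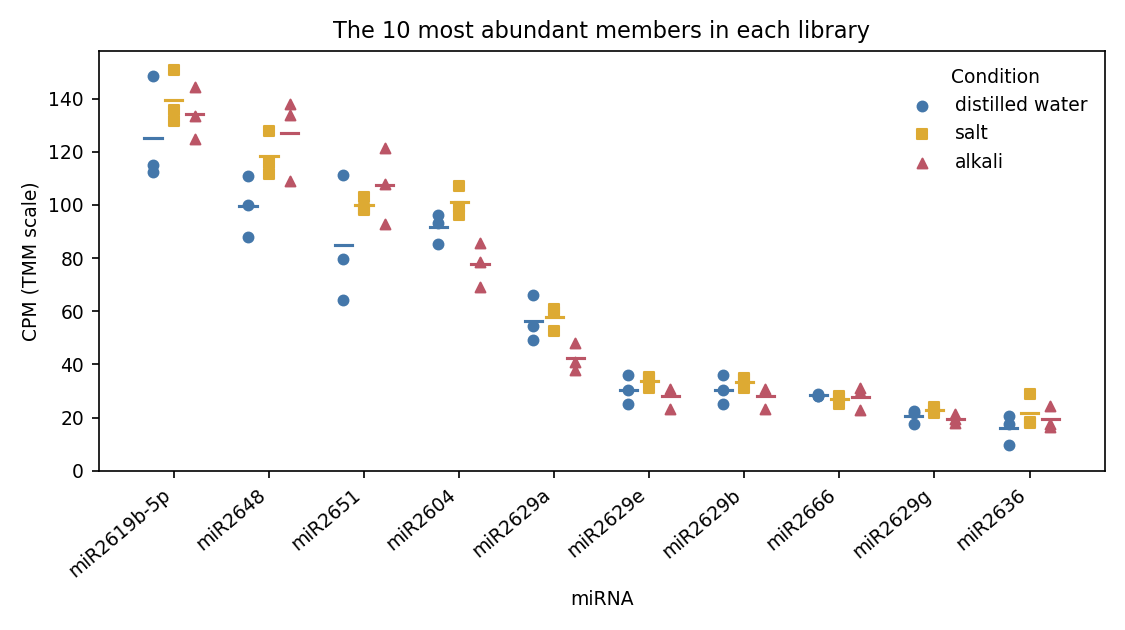
CPM on the TMM scale of the 10 most abundant members, with 1 point per library and a line at the mean of each condition (n = 3). The alkali libraries lie below the salt libraries for miR2604, miR2629a, miR2629b, miR2629e and miR2629g, of which miR2629b and miR2629e have nearly the same counts. The salt libraries of miR2648 lie above distilled water, and the conditions overlap throughout for the other 4. Of all profiles tested, 12.2% lay lower in alkali than in salt and 13.5% higher in salt than in distilled water, without overlap.

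The miR2629 family had 6 distinct profiles, all with enough counts for the test. mtr-miR2629a was the highest of them, at 66.0, 49.1 and 54.4 CPM in distilled water, 60.8, 52.7 and 59.7 CPM in salt and 38.0, 41.0 and 48.2 CPM in alkali. Its alkali libraries lay below those of both other conditions. The log2 fold change was -0.42 against distilled water (standard error 0.186, adjusted p = 0.091) and -0.45 against salt (standard error 0.186, adjusted p = 0.180) by edgeR, and neither passed. mtr-miR2629b, mtr-miR2629e and mtr-miR2629g averaged 30.7, 30.7 and 21 CPM over the 9 libraries, with alkali libraries below the salt libraries in each. mtr-miR2629f was at 15.1 CPM. mtr-miR2629d, the lowest of the family, averaged 3.19 CPM and had its highest levels in salt, where all 3 libraries (3.55, 4.98 and 3.43 CPM) lay above the distilled water libraries (2.97, 1.84 and 3.07 CPM).

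By coefficient of variation, mtr-miR2666 was the steadiest member. Its level ran from 22.9 CPM in AS1 to 31.2 CPM in AS2, with a coefficient of variation of 8.90% over the 9 libraries, where counting error alone would give 8.76%. Next came mtr-miR2619b-5p, at 10.4% against 4.02% from counting, and mtr-miR2629g, at 10.6% against 10.1%. The weak mtr-miR2595 varied by 24.4%, less than its counting error of 31.6%. In all, 12 of the 35 tested members varied by less than 1.5 times their counting error and 11 by at least 2 times. The median coefficient of variation was 23.99% over the 35. The widest was that of mtr-miR2639, at 48.6% against 24.2% from counting.

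The summed level of the members in salt was below that in distilled water on 1 scale and above it on the other scales, while alkali had the lowest mean on all 3. As a share of all miRNA counts, the members took 0.111%, 0.0878% and 0.0964% in DW1, DW2 and DW3, 0.0968%, 0.0817% and 0.0957% in the salt libraries and 0.0619%, 0.0714% and 0.0806% in the alkali libraries. All alkali libraries were below the distilled water libraries on that scale, with means of 0.0713% ± 0.00934 and 0.0984% ± 0.0118 (SD, n = 3 each). The members' counts were summed with each distinct profile once, whereas the library total held every entry, copies included. With copies kept among the members too, the mean share was 0.105% (alkali), 0.133% (salt) and 0.157% (distilled water). Every alkali library was again below every distilled water library. On the TMM scale distilled water averaged 839 ± 53.9 CPM, salt 916 ± 19.2 CPM and alkali 825 ± 20.04 CPM (SD, n = 3 each). On that scale every salt library (903, 938 and 907 CPM) lay above every distilled water library (823, 795 and 899 CPM) and every alkali library (806, 824 and 846 CPM), SS1 by a few CPM over DW3, while alkali overlapped distilled water. Per 1000000 clean reads, the means were 121 ± 24.6, 134 ± 3.94 and 114 ± 10.8 counts (SD, n = 3 each). The TMM factors themselves ran from 0.768 in AS1 to 1.35 in DW1, so the share of counts moves with them. In libraries of entire seedlings, less of a miRNA per cell and fewer of the cells that make it cannot be told apart.

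**Figure D3:**
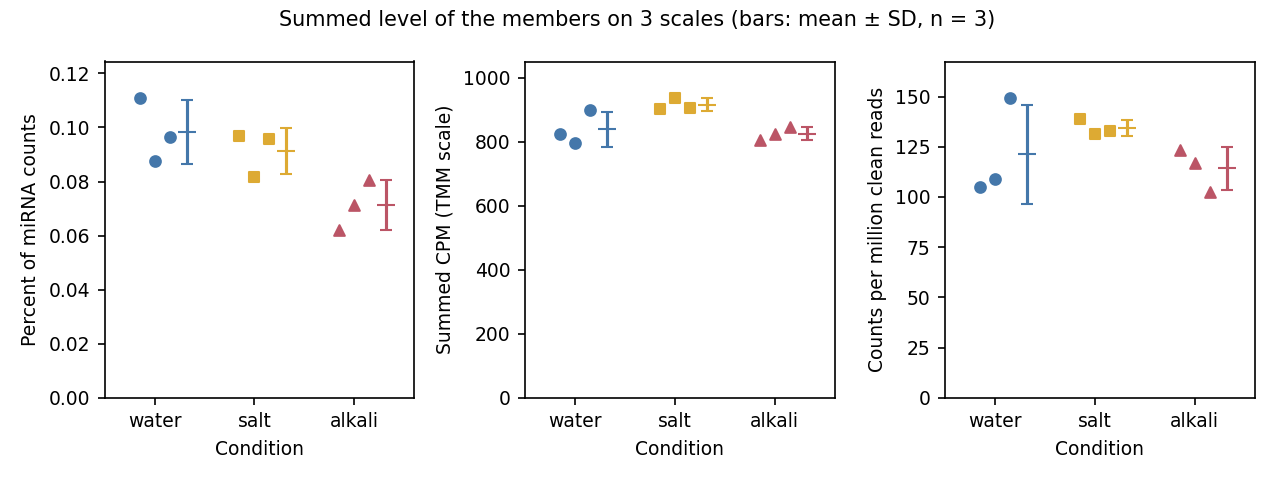
Summed level of the 64 member profiles in each library as a percent of miRNA counts, in CPM on the TMM scale and per 1000000 clean reads, with the mean ± SD of each condition (n = 3). The alkali libraries are lowest on the first scale and overlap distilled water on the other scales, and the salt libraries are highest on the TMM scale, at 903 to 938 CPM.

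Salt and alkali were each compared with distilled water, and with each other, in 1 fit of all 9 libraries. A miRNA was called where its fold change exceeded 1.5 in either direction and its adjusted p lay below 0.05. Rose and fell below mean called higher and called lower, and a member that was not called was not thereby shown to be unchanged. Of the 64 profiles, 35 passed the filter on low counts, among 490 profiles that passed in all. The fold changes of these 35 ran from 0.673 to 1.82 in salt, from 0.523 to 1.57 in alkali and from 0.640 to 1.45 between alkali and salt. The 95% interval stayed within 2-fold in both directions for 28 members in salt, 25 in alkali and 21 between the treatments. Within 1.5-fold, the fold that a call needs, it stayed for 11, 7 and 4 members. For the other members a change of that size was not excluded.

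In salt, 0 of the 35 members were called, higher or lower. Of all entries, 8.19% were called in that comparison, 4.02% higher and 4.17% lower. With each distinct profile counted once the share was 8.57%, with 4.69% higher and 3.88% lower. DESeq2 and limma called 0 members as well, and 0 had an unadjusted p under 0.05 in edgeR, against 21% of entries and 24.5% of distinct profiles. The lowest adjusted p was 0.290. The members' log2 fold changes had a median of 0.13, with 24 above and 11 below zero. Over all 490 profiles tested the median was -0.04, with 229 above and 261 below. The salt and distilled water libraries did not overlap for 4 members, mtr-miR2648, mtr-miR2639 and mtr-miR2629d above and mtr-miR2671a below, against 24.1% of all profiles. By direction, 13.5% of all profiles lay above and 10.6% below. Of the 63 tested profiles of 21 nt numbered below 1000, 6 rose and 6 fell in salt, and of the 34 numbered above 5000, 4 rose and 1 fell. Of the 25 tested profiles with the members' numbers but other lengths, 0 rose and 0 fell.

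mtr-miR2639 had the highest fold change in salt of the 35 members tested. It was counted 9, 12 and 18 times in DW1, DW2 and DW3, 20, 23 and 32 times in the salt libraries and 28, 15 and 5 times in the alkali libraries. In CPM these were 1.78, 2.75 and 3.68 in distilled water, 4.44, 6.74 and 4.22 in salt and 5.78, 2.66 and 1.27 under alkali. The salt libraries lay above the distilled water libraries, and the alkali libraries spanned both, with AS1 near the top and AS3 at the bottom. The log2 fold change in salt was 0.86 (standard error 0.445, adjusted p = 0.290 by edgeR), and the interval of the fold ran from 0.960 to 3.45.

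mtr-miR2671a, a profile of 10 entries, was at 4.94, 5.51 and 4.91 CPM in distilled water and 2.89, 2.05 and 4.74 CPM in salt. It was at 4.13, 3.37 and 5.84 CPM in alkali, which overlapped distilled water. Its log2 fold change in salt was -0.57 (standard error 0.368, adjusted p = 0.360 by edgeR). mtr-miR2636 was at 9.88, 20.7 and 17.6 CPM in distilled water, 18.4, 29.0 and 18.1 CPM in salt and 24.5, 16.3 and 17.8 CPM in alkali. DW1 stood low and SS2 high for this miRNA, and the conditions overlapped.

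In alkali, 1 of the 35 members was called lower and 0 were called higher. Of all entries, 17.2% were called, 8.66% higher and 8.5% lower. Of distinct profiles it was 19.2%, with 9.18% higher and 10% lower. An unadjusted p under 0.05 in edgeR was found for 6 members, against 41.9% of entries and 43.3% of distinct profiles. DESeq2 called 0 members and limma 1. The members' median log2 fold change was -0.23, with 11 above and 24 below zero. Over all profiles it was -0.14, with 212 above and 278 below. The alkali and distilled water libraries did not overlap for 6 members, 1 above (mtr-miR2679a) and 5 below (mtr-miR2629a, mtr-miR2619a, mtr-miR2676a, mtr-miR2676c and mtr-miR2652a), against 36.1% of all profiles. By direction, 16.9% of all profiles lay above and 19.2% below. In the same comparison 17 of the 63 profiles numbered below 1000 rose and 3 fell, and 7 of the 34 numbered above 5000 rose and 0 fell. Of the 25 tested profiles of the same numbers but other lengths, 0 rose and 1 fell. These lists lie at other levels than the members, and the differences between lists were not tested.

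The most positive value was that of mtr-miR2586a, with a fold change of 1.57 that did not pass the test.

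mtr-miR2606a was the member that fell in alkali. It was counted 64, 34 and 51 times in DW1, DW2 and DW3, 34, 25 and 76 times in the salt libraries and 13, 45 and 21 times in the alkali libraries. On the TMM scale this was 12.7, 7.80 and 10.4 CPM in distilled water, 7.55, 7.33 and 10.0 CPM in salt and 2.68, 7.98 and 5.33 CPM in alkali. DW1 was the highest library and AS1 the lowest, and AS2 lay above DW2, so the conditions overlapped. The fold change in alkali was 0.523 (95% interval 0.329 to 0.832), a log2 fold change of -0.93 (standard error 0.323, adjusted p = 0.0465 by edgeR). In salt it was -0.29 (standard error 0.305, adjusted p = 0.578). Alkali against salt gave -0.64 (standard error 0.327, adjusted p = 0.302).

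The call of mtr-miR2606a lay close to the threshold and depended on the libraries. It was lost without DW1, DW2, DW3, SS2, SS3 or AS1, each left out in turn, with adjusted p from 0.0122 to 0.226 over the 9 fits by edgeR. The log2 fold change was -0.69 without DW1 and -0.61 without AS1. It was -1.01 without DW2, -0.94 without SS2 and -0.95 without SS3, with adjusted p of 0.0557, 0.0522 and 0.0514 by edgeR, and -0.85 without DW3 (0.0609). Over all 18 alternative settings the adjusted p ran from 0.0122 to 0.548. DW1 and AS1 were also the libraries with the highest and the lowest TMM factor. Without both, the log2 fold change was -0.41 (adjusted p = 0.548 by edgeR). They are also the highest and the lowest library of this miRNA, so leaving both out had to weaken the fall. That fit therefore cannot tell an effect of the scaling from the loss of the extreme values.

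mtr-miR2606b shares the listed mature sequence of mtr-miR2606a but not its counts. It was counted 6, 5 and 5 times in DW1, DW2 and DW3, 3, 3 and 4 times in the salt libraries and 2, 2 and 1 times in the alkali libraries, or 31 counts in all against 363 for mtr-miR2606a. With so few counts it was left out of the test. In CPM it was at 1.19, 1.15 and 1.02 in distilled water, 0.666, 0.879 and 0.527 in salt and 0.413, 0.355 and 0.254 in alkali, so that the conditions did not overlap. The gap between salt and alkali rests on 4 counts in SS3 against 2 in AS1. Fitted with no filter, the log2 fold change of mtr-miR2606b in alkali was -1.58 (standard error 0.859, adjusted p = 0.182 by edgeR).

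**Figure D4:**
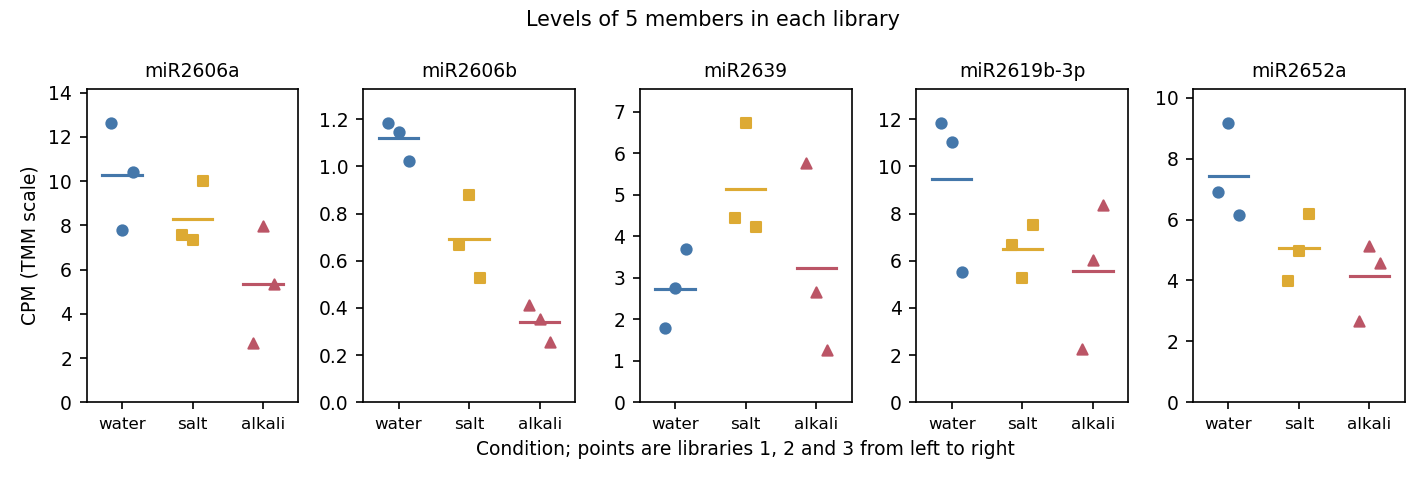
CPM on the TMM scale of miR2606a, miR2606b, miR2639, miR2619b-3p and miR2652a, with libraries 1, 2 and 3 of each condition from left to right and a line at the mean (n = 3). miR2606a is lowest in AS1 at 2.68 CPM and highest in DW1 at 12.7 CPM, and miR2639 is highest in SS2 at 6.74 CPM.

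Several other members had lower means in alkali without passing the test. mtr-miR2652a, a profile of 8 entries, was at 6.92, 9.18 and 6.14 CPM in distilled water, 3.996, 4.98 and 6.19 CPM in salt and 2.68, 5.14 and 4.57 CPM in alkali. The alkali libraries were all below the distilled water libraries, and the salt libraries overlapped both, with SS3 just above DW3 and SS1 below AS2. Its log2 fold change in alkali was -0.83 (standard error 0.334, adjusted p = 0.0704 by edgeR). mtr-miR2598 was at 21.7, 19.1 and 13.9 CPM in distilled water, 18.9, 16.4 and 16.1 CPM in salt and 8.25, 11 and 17 CPM in alkali. AS3 lay above DW3, and the log2 fold change in alkali was -0.61 (standard error 0.249, adjusted p = 0.0704 by edgeR).

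miR2619b was the 1 precursor with both arms named among the members. The 5p arm, described above, was the main one, and mtr-miR2619b-3p averaged 7.17 CPM against 133 CPM. The 3p arm was at 11.9, 11.02 and 5.53 CPM in distilled water, 6.66, 5.27 and 7.51 CPM in salt and 2.27, 6.03 and 8.37 CPM in alkali. Its log2 fold change in alkali was -0.79 (standard error 0.364, adjusted p = 0.103 by edgeR), and DW3 lay below AS2 and AS3. The ratio of 5p to 3p counts was 9.70, 10.2 and 26.9 in distilled water, 20.4, 28.6 and 17.5 in salt and 58.7, 20.7 and 17.2 under alkali. The highest ratio, in AS1, rested on 11 counts of the 3p arm.

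Alkali compared directly with salt gave 0 calls among the 35 members, where 4.02% of all entries were called, 3.4% higher and 0.618% lower. Of distinct profiles 3.47% were called, 2.65% higher and 0.816% lower. DESeq2 and limma also called 0, and 4 members had an unadjusted p under 0.05 in edgeR, against 17.6% of entries and 16.5% of distinct profiles. Of the 35, 28 had a log2 fold change below zero and 7 above, with a median of -0.27. Over all 490 profiles 287 were below and 203 above, with a median of -0.07. Near copies within a family count separately among the 35. The alkali libraries lay below the salt libraries for 7 members and above them for 0, against 23.1% of profiles in either direction and 12.2% lower. The 7 were mtr-miR2604, mtr-miR2629a, mtr-miR2629b, mtr-miR2629e, mtr-miR2629g, mtr-miR2676a and mtr-miR2676c, of which mtr-miR2629b and mtr-miR2629e have nearly the same counts.

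The lowest p among the members tested in this comparison was that of mtr-miR2676c, of the miR2676 family. Its 5 profiles averaged 13.3 CPM (mtr-miR2676a), 13.1 CPM (mtr-miR2676b), 13.01 CPM (mtr-miR2676c), 9.14 CPM (mtr-miR2676d) and 8.504 CPM (mtr-miR2676f). mtr-miR2676c was at 16.0, 12.6 and 12.5 CPM in distilled water, 18.2, 14.4 and 13.4 CPM in salt and 7.22, 10.8 and 11.9 CPM in alkali. Its log2 fold change of alkali against salt was -0.62 (standard error 0.238, adjusted p = 0.138 by edgeR). mtr-miR2676f gave -0.57 (standard error 0.263, adjusted p = 0.247 by edgeR), and its alkali and salt libraries overlapped at AS2 and SS2.

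**Figure D5:**
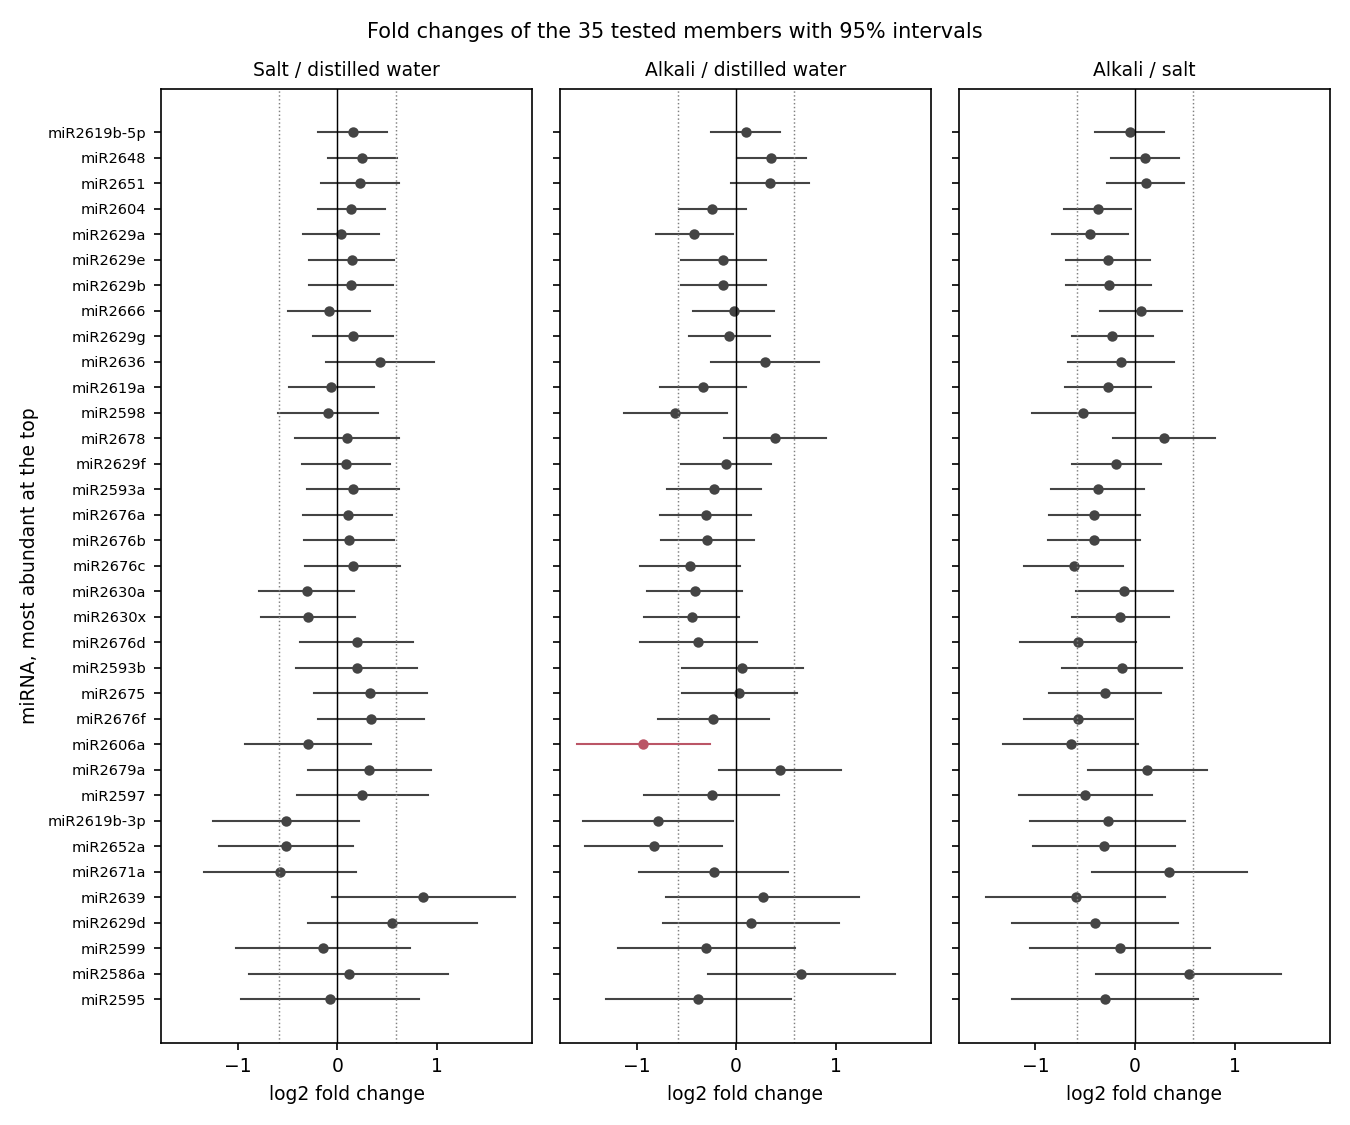
log2 fold changes of the 35 tested members with 95% intervals in the 3 comparisons, ordered by mean level, with dotted lines at a 1.5-fold change and the called value in red. miR2606a in alkali against distilled water is the one call, at -0.93, and the intervals widen towards the weaker members at the bottom.

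The remaining 28 profiles with counts were too rare for a test, with 1 to 73 counts each over the 9 libraries together. Counts in a single library were found for 3 of them, mtr-miR2623 (3 counts in SS2), mtr-miR2647a (2 in SS3) and mtr-miR2661 (1 in AS3). A count of 0 in a library allows up to 3 counts, or 0.395 CPM in SS3, the deepest library, to 0.879 CPM in SS2, and covers counting error only. At this depth these members cannot be called absent from any condition. A further 7 entries, among them mtr-miR2588a and mtr-miR2674, were at 0 in every library. When the filter was removed, 63 members were fitted and 0 more were called in any comparison by edgeR.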

How the data were processed

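The authors kept trimmed reads of 18 to 30 nt, used Bowtie to take out reads of rRNA, tRNA and similar RNAs, and counted known (miRBase 22) and predicted miRNAs on genome Mt4.0. The deposited counts are whole numbers per entry and library. The deposited TPM values equal these counts per 1000000 of the library's total, so only counts were analysed. How reads of identical mature sequences were assigned is not given in the sources used here.

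Entries with identical counts and length were taken once, and fits and adjustment ran over all 647 entries kept by filterByExpr (minimum count 10). Counts were fitted in edgeR 4.0.16 (R 4.3.3) with TMM, all 9 libraries by condition and robust dispersions, and tested by quasi-likelihood with Benjamini-Hochberg adjustment. Intervals of a fold are 95% from the same fit, and the standard error is the log2 fold change over the square root of F. CPM is per 1000000 of the TMM-scaled library, and each SD is over 3 libraries. Counting error of a level is Poisson. Members, lists and the rule for named miRNAs were chosen with earlier results of these data known. The rule took called members, the 10 most abundant, the 5 with the smallest p in each comparison, those listed by the study, paired arms, and the highest and lowest of families with 3 tested profiles. Other members named were chosen after their values were seen. Alternatives were DESeq2 1.42.0, limma-voom (limma 3.58.1), other library sizes (including the clean-read totals from the study), filters and thresholds, a replicate block and left-out libraries. The fit was also run on simulated counts. The outcome is not reported here, and no result above rests on it. DESeq 1.10.1, named in the submitters' processing notes, was not used here.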

Additional observations from a re-analysis of the deposited data

How the results depend on the processing

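In alkali against distilled water the count of 1 called member was 0 with DESeq2, with DESeq2's size factors, with only the 2 groups compared, with identical profiles taken once, with the replicate block and without DW1 and AS1, and it was 4 at an unadjusted p. With at least 100 counts in 3 libraries it was also 0, but that filter left 10 members and removed mtr-miR2606a, so it says nothing about that call. With any 1 library left out it lay between 0 and 5. The 5, without DW3, were mtr-miR2598 and mtr-miR2619b-3p lower and mtr-miR2586a, mtr-miR2651 and mtr-miR2678 higher, and without AS3 the 3 called were mtr-miR2606a, mtr-miR2598 and mtr-miR2619b-3p. It was 0 without DW1, DW2, SS2, SS3 or AS1. In salt the count stayed at 0 in each of these settings. Between alkali and salt it was 1 at an unadjusted p (mtr-miR2676c) and ranged from 0 to 1 with 1 library left out, the 1 being mtr-miR2598 without AS3. Of 18 alternative fits of mtr-miR2606a, 6 kept its call, and of 1107 values of named members under an alternative, 12 lost a call, 6 gained one and 0 changed the direction of a call. Same-numbered libraries of different conditions did not deviate together (correlations from -0.54 to 0.31), so the replicate block is given only here. Members detected were 41 at 10 counts in a library and 131 when every entry counted. The members' summed share in salt over distilled water was 0.928, and 1.11 per 1000000 clean reads and 1.09 on the TMM scale. In alkali it was 0.724, and 0.944 and 0.984. Leaving out 1 library gave 0.881 to 0.992 in salt and 0.677 to 0.774 in alkali. DESeq2's size factors moved the median log2 fold change of all entries in alkali from -0.17 to -0.06, and that of the members from -0.23 to -0.12. Over all entries the calls were 53 in salt and 111 in alkali, and ranged from 8 to 101 and from 49 to 202 with 1 library left out. In salt they were 93 at an unadjusted p, 80 with the 2 groups alone, 32 with at least 100 counts in 3 libraries, 31 with the replicate block and 7 with clean reads as library sizes. In alkali they were 42 without DW1 and AS1. Between alkali and salt they were 26, and 60 at an unadjusted p, 10 with at least 100 counts, and 18 to 63 with 1 library left out. The median level of the 35 tested was 13.01 CPM against 27.96 CPM over all profiles tested, and their median coefficient of variation was 23.99% against 12.8% from counting alone.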

Other observations

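Ratios of counts within a library do not depend on the scaling, and those below were chosen after their values were seen. The ratio of mtr-miR2629a to mtr-miR2629e counts was 1.83, 1.95 and 1.80 in distilled water, 1.75, 1.70 and 1.70 in salt and 1.64, 1.33 and 1.61 under alkali. The conditions did not overlap on it, but the counting error of a single ratio was 0.131 to 0.228, which is of the size of the steps between conditions. The ratio of mtr-miR2604 to mtr-miR2651 counts was 1.45, 1.07 and 0.867 in distilled water, 1.01, 1.04 and 0.983 in salt and 0.569, 0.844 and 0.795 in alkali. All alkali libraries were lowest on it, with AS2 close to DW3.

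The count ratio of mtr-miR2606a to mtr-miR2606b, which share a listed mature sequence, ran from 6.50 in AS1 to 22.5 in AS2. The smaller count of the pair was 1 to 6 in each library, and the counting error of the ratio was 21.5 in AS3, where the ratio was 21.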
